A study of Mus musculus with 719 samples.

Results

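The cells described here are 92 single retinal cells from Pcdh9-Cre mice at postnatal day 10 (P10), out of 719 single cells in the whole series. They were divided by Fstl4, a gene that was counted as detected in a cell at 0.5 estimated fragments or more. Fstl4 was detected in 57 cells and not in the other 35. The split uses a measured value, so the levels of Fstl4 on its 2 sides are a description, and every gene measured in the same cells is described without a test. The labels name neither animals nor litters, and all cells on 1 side count as 1 sample. No p-value is therefore given for a difference between the sides.

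The submitters label all 92 cells as ON direction-selective ganglion cells with an unknown preferred direction. The labels give the line, Pcdh9-Cre, but not the reporter that makes its cells visible, and a Cre line of this kind marks cells by the activity of the Pcdh9 gene. Comparison cells at the same age came from 2 other lines, and all 3 groups went through the same preparation. Spig1-GFP retinas gave 45 ON cells that are labelled as preferring upward motion (GFP sorted positive in the protocol) and 32 labelled downward, and HB9-GFP retinas gave 49 ON-OFF cells labelled downward. Papain was used to dissociate the retinas, as the labels' protocols state. Cells were stained for CD11b, a surface protein of microglia, and sorted singly when they carried fluorescent cholera toxin B and lacked CD11b. Cholera toxin B is a tracer that axon endings take up and carry back to the cell body, and the protocol states that microglia can carry it too.

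ON direction-selective ganglion cells respond to slow drift of the image and send axons to the brainstem nuclei that steady the gaze. Fstl4, also called Spig1, encodes a secreted follistatin-like protein, and it marks the ON cells that prefer upward motion. Retinal microglia are resident phagocytes that clear dying cells and debris while the retina matures. The question for the split is which retinal cell types the line and the tracer captured.

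Depth was similar on both sides. Totals over named genes ran from 197243 to 1641570 estimated fragments per cell. The median was 683608 in cells with Fstl4 and 613124 in cells without it. A median of 10002 genes was detected in cells with Fstl4 and 6689 in those without. No pair of cells held identical values, and the highest correlation between a pair was 0.70 over 11887 genes. All 92 cells carry the second of 2 numberings found in the deposited table of cells, whose meaning no source used here states, while the other lines at P10 were spread over both, so line and numbering cannot be told apart for the Pcdh9-Cre cells.

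Fstl4 lies on chromosome 11 (52764634 to 53188538, plus strand, GENCODE M21 on GRCm38). The cells with it make up 62% of the 92 (exact 95% interval 51.2% to 71.9%, counting error only). Among them Fstl4 ran from 4.87 to 1607 CPM (fragments scaled to the same total in every cell), with a median of 411 CPM. The side without Fstl4 was at 0 in all 35 cells, and the lowest cells on the other side held 4 and 5 fragments (4.87 and 9.75 CPM), followed by one with 17. Few cells therefore lay near the threshold: 2 were under 10 CPM, 8 lay between 10 and 100, 16 between 100 and 300, 24 between 300 and 1000, and 7 above 1000 CPM. In the Spig1-GFP cells labelled up, all 45 held Fstl4, from 42.3 to 853 CPM with a median of 279. In those labelled down, 6 of 32 held it, up to 50.6 CPM. In the ON-OFF cells 35 of 49 held it (71.4%), with a median of 64.1 CPM and a highest value of 1690. The highest Pcdh9-Cre cells thus exceeded every up cell.

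**Figure D1:**
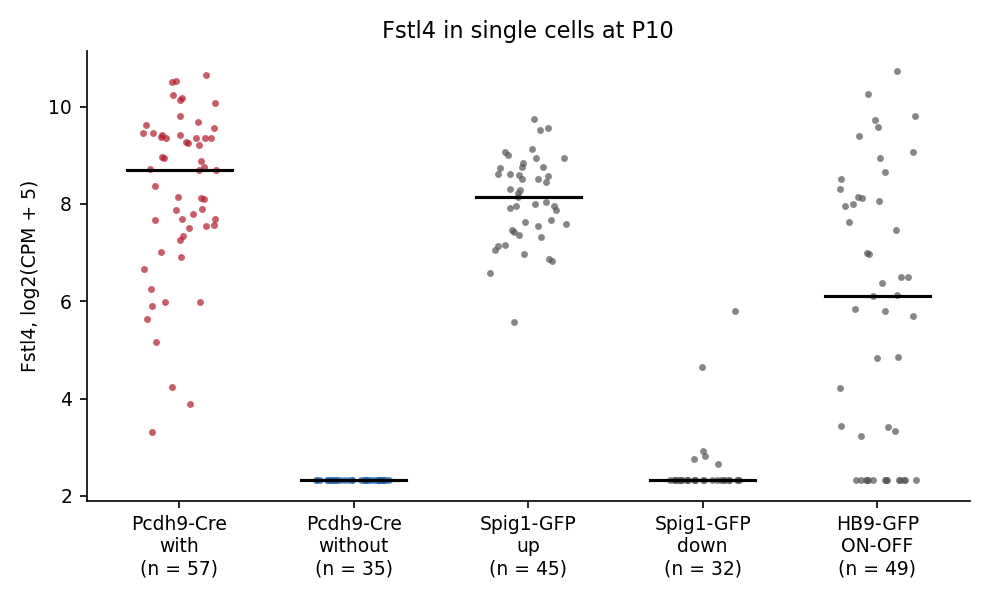
Fstl4 in single cells at P10, as log2(CPM + 5) on the vertical axis, for Pcdh9-Cre cells with and without Fstl4, Spig1-GFP cells labelled up and down, and HB9-GFP ON-OFF cells. Each point is 1 cell and each bar is the median. The 57 Pcdh9-Cre cells with Fstl4 cover the range of the 45 up cells and extend beyond it at both ends, whereas the 35 cells without it all sit at 0 CPM.

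Cells with and without Fstl4 differed first in how much ganglion cell RNA they held. Rbpms encodes an RNA-binding protein found in nearly all ganglion cells. It was detected in 53 of 57 cells with Fstl4 and 12 of 35 cells without (93.0% and 34.3%). With Fstl4 it ran from 0 to 1086 CPM with a median of 546, and without Fstl4 from 0 to 807 CPM with a median of 0. Slc17a6, the vesicular glutamate transporter of ganglion cells, averaged 634 and 156 CPM. The intermediate filament gene Nefm averaged 894 and 189 CPM. Differences are given as log2 of the mean CPM on each side, with 5 added, and a gene is counted as higher or lower at a difference of at least 1. By that count 8 of 12 ganglion cell markers were higher with Fstl4 and 0 were lower, with a median difference of 1.57. Over all 11970 genes at a mean of at least 5 CPM, 8.85% were higher and 15% were lower, with a median of -0.08. When log2 values were averaged cell by cell instead, 5208 genes were higher and 662 lower, in place of 1059 and 1801. With the 5% highest and lowest cells of each side left out of the means, 1397 were higher and 1465 lower.

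Pcdh9 itself, the protocadherin gene that gives the line its name (chromosome 14, 93013410 to 93890679, minus strand), followed the same division. It was detected in 56 of 57 cells with Fstl4, from 0 to 1558 CPM with a median of 726. Without Fstl4 it was detected in 21 of 35 cells, from 0 to 835 CPM with a median of 1.65. The 45 up cells had a median of 953 CPM and the 32 down cells one of 933 CPM. Of the cells without Fstl4, 14 thus held no Pcdh9 fragment at all.

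The side without Fstl4 carried much microglial RNA. Ctss encodes the lysosomal protease cathepsin S, which is abundant in microglia (chromosome 3, 95526786 to 95556403, plus strand). It was detected in 21 of 35 cells without Fstl4 and in 18 of 57 cells with it. Without Fstl4 it ran from 0 to 10866 CPM with a median of 957, and with Fstl4 from 0 to 9189 CPM with a median of 0. No fragment of Ctss was found in the 45 up cells or the 32 down cells, which allows a share of up to 6.67% and 9.38% of cells. All 15 microglial markers were lower with Fstl4, with a median difference of -3.72. C1qb, a subunit of the complement starter C1q, averaged 69.3 CPM with Fstl4 and 1370 CPM without. Cx3cr1, the fractalkine receptor, averaged 18.7 and 516 CPM. Itgam encodes CD11b, the protein on which cells were excluded by the sort, and averaged 2.4 and 42.6 CPM. Its RNA was found in 15 of 35 cells without Fstl4 and 6 of 57 with it. With 10 CPM as the level for a marker, 22 of 35 cells without Fstl4 and 17 of 57 with it held at least 3 of the 15 microglial markers. In the Spig1-GFP cells the count was 0 of 45 and 0 of 32, and in the ON-OFF cells 5 of 49.

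Rod transcripts were present on both sides. At least 3 of 12 rod markers reached 10 CPM in 48 of 57 cells with Fstl4 and 32 of 35 without, and in 2 of 45 Spig1-GFP cells labelled up and 5 of 32 labelled down. The summed level of these markers ran from 0 to 32019 CPM with a median of 866 in cells with Fstl4. In cells without it the sum ran from 39.6 to 65281 CPM with a median of 5879. All 12 rod markers and 8 of 9 bipolar cell markers were lower with Fstl4. Both the microglial and the rod levels move with the split, and their part in the gene differences over all 92 cells was not tested. With the 39 cells that held 3 or more microglial markers left out, 40 cells with Fstl4 and 13 without remained, and 1005 genes were higher and 1591 lower in place of 1059 and 1801. Of the ganglion cell markers 4 were then higher and 2 lower.

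The genes with the largest differences were named among those found in at least 50% of the cells of the higher side. Higher with Fstl4 were Pcdh8 (a protocadherin), Ano3 (a membrane protein of the anoctamin family), Igfbp5 (an insulin-like growth factor binding protein), Ppp1r1c, Gabra5 (a GABA receptor subunit), Syt6 (a synaptotagmin), Mmp17 (a membrane-bound metalloproteinase), Cdh6 (a cadherin), Prph (the filament protein peripherin), the transcription factors Nr2f2 and Bnc2, Robo1 (a Slit receptor of growing axons), Fam163a and Rasgrf1. Pcdh8 averaged 202 CPM with Fstl4 and 5.74 CPM without, and 279 and 171 CPM in the up and down cells. Syt6 averaged 562 and 54.2 CPM. Lower with Fstl4 were C3ar1, Unc93b1, Hpgds, Sgk1, Cd68, Cd84, Cx3cr1, Pld4, C1qa, Fcgr2b, Fcgr3, C1qb, Selenop, Apoe and Trf. Of these, C3ar1 and the C1q genes belong to the complement system, Fcgr2b and Fcgr3 bind antibodies, and Cd68 is a lysosomal glycoprotein of phagocytes. C3ar1 averaged 7.17 CPM with Fstl4 and 398 CPM without, and Apoe, the lipid carrier apolipoprotein E, averaged 350 and 5559 CPM.

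Lists of genes with a shared role were counted over the 92 cells in the same way. Over all 11970 genes 8.85% were higher with Fstl4 and 15% were lower. With log2 values averaged cell by cell 5208 of all genes were higher, so the shares that are higher depend on the average used. Of 13 lysosome and phagocytosis genes measured, 12 were lower with Fstl4, and of 15 complement and innate immunity genes 13 were lower. The chemokine gene Ccl4 averaged 10.3 CPM with Fstl4 and 618 CPM without. All 10 early stress genes measured were lower, among them Fos (179 and 1156 CPM) and Atf3 (4.96 and 373 CPM), which are transcription factors induced within minutes of a stimulus. Of the ion channel and receptor genes, 5 of 7 acetylcholine receptor subunits, 6 of 8 sodium channel genes and 9 of 26 potassium channel genes were higher with Fstl4. The nicotinic subunits Chrnb3 (497 and 64.5 CPM) and Chrna3 (340 and 43.7 CPM) led the first list, and the potassium channel Kcnc4 (73.8 and 5.79 CPM) the last. Of 24 cadherins and protocadherins, 11 were higher and 2 lower, and of 42 adhesion genes of the immunoglobulin and contactin families 17 were higher and 1 lower. Mitochondrial transcripts gave 0 of 9 in either direction.

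The cells were then clustered on 1000 variable genes, with Fstl4 left out. They fell into 2 clusters. The first held 59 cells and had higher levels of 9 of 12 ganglion cell markers, so it is called ganglion-cell-like. Its leading genes were the nicotinic subunits Chrna6 and Chrnb3, Nell1, Rbpms and Cartpt, a neuropeptide. The second held 33 cells and was led by P2ry12, C1qb, Ctss and Cx3cr1. Fstl4 was present in 51 of the 59 ganglion-cell-like cells (86.4%, interval 75.0% to 94.0%) and in 6 of the 33 others (18.2%, interval 7.0% to 35.5%). The 35 cells without Fstl4 were thus 8 ganglion-cell-like cells and 27 others. Depth was similar in both clusters, with medians of 636208 fragments in the first and 676852 in the second, whereas the median number of genes was 10012 and 6496. Levels of genes that shaped the clusters are given as a description.

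**Figure D2:**
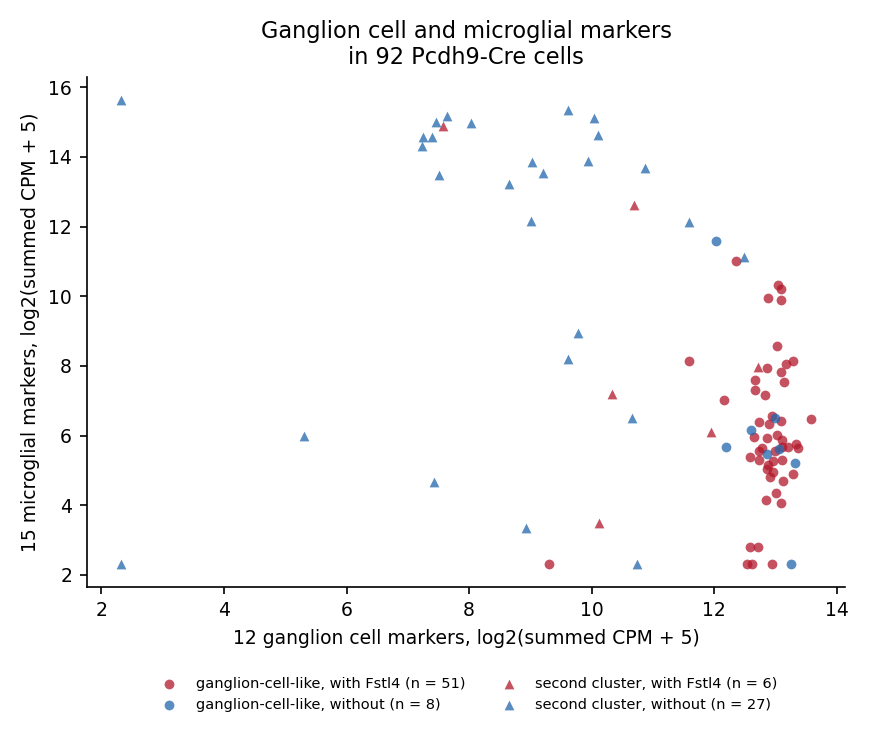
Summed level of 12 ganglion cell markers (horizontal) and of 15 microglial markers (vertical) in each of the 92 Pcdh9-Cre cells, both as log2(summed CPM + 5). Circles are the 59 ganglion-cell-like cells and triangles the 33 others, red with Fstl4 and blue without. Most circles share a high ganglion cell sum, with microglial sums from 0 to 3091 CPM, and most blue triangles sit at low ganglion cell and high microglial sums.

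The second cluster was itself mixed. With 5 components in place of 10 the cells formed 4 clusters of 62, 12, 7 and 11 cells. The cluster of 62 was ganglion-cell-like, with Fstl4 in 53. The cluster of 12 had higher levels of all 12 rod markers, with a summed rod level between 6578 and 65281 CPM, and is called rod-like. Its leading genes included Prom1, Slc17a7 and Otx2. Fstl4 was found in 2 of its cells. Markers of other types were present as well: 9 of the 12 cells held at least 3 bipolar cell markers at 10 CPM, and 4 held at least 3 microglial markers. In 1 cell the bipolar sum of 12063 CPM exceeded the rod sum of 6578 CPM. Over all 92 cells, 80 held at least 3 rod markers. The cluster of 11 had higher levels of all 15 microglial markers, at a summed level between 20256 and 50774 CPM, and was led by the cytokine genes Il1b, Il1a, Ccl3 and Ccl4. It is called microglia-like and held 1 cell with Fstl4. The cluster of 7 stays unnamed. It had higher levels of 14 of 15 microglial markers (6223 to 14970 CPM summed), and all 7 cells held at least 3 of them at 10 CPM. In 5 of the 7, at least 3 amacrine cell markers reached that level too. Its leading genes were Lgals3, Npy, Tfap2b, Npnt, Gpnmb, Spp1, Itgax, Lag3, Gad1 and Rai14. Of these, amacrine cells express Npy, Tfap2b and Gad1. The cluster held Fstl4 in 1 cell.

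The 6 cells with Fstl4 outside the ganglion-cell-like cluster were unlike one another. Their Fstl4 ran from 4.87 to 701 CPM with a median of 62.7. The lowest of them held a summed microglial level of 30095 CPM, the highest of any cell with Fstl4. Another held 32019 CPM of rod markers, the highest such sum on that side, beside 701 CPM of Fstl4. The starburst amacrine cell is the cholinergic interneuron that feeds direction-selective cells, and 2 of the 6 cells held summed levels of its 5 markers of 1444 and 1579 CPM. In the same cluster 2 cells without Fstl4 held 1377 and 2146 CPM, the latter the highest of the 92 cells. The largest such sum in the 51 ganglion-cell-like cells with Fstl4 was 45.2 CPM. The alternative with 5 components placed 2 of the 6 in its ganglion-cell-like cluster.

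Within the ganglion-cell-like cluster both sides held the RNA of ganglion cells. The summed level of the 12 markers had a median of 7831 CPM in the 51 cells with Fstl4, from 629 to 12226. In the 8 cells without it the median was 7802 CPM, from 4164 to 10242, and the ranges overlap. The cell at 629 CPM held 44.6 CPM of Fstl4 and 6 of 7 amacrine cell markers at 10 CPM. Their sum of 3454 CPM was the highest in the cluster. Rbpms ran from 0 to 1086 CPM with a median of 557 on the first side, and from 263 to 807 CPM with a median of 426 on the second. Here 0 of the 12 markers were higher with Fstl4 and 2 were lower, Pou4f1 and Pou4f3. These encode POU transcription factors of ganglion cells. Pou4f1 averaged 49.7 CPM with Fstl4 and 155 CPM without. Pou4f3 was found in 4 of 51 and 4 of 8 cells. Median depth was 642291 and 588463 fragments, and a median of 10193 and 9476 genes was detected. The summed microglial level had medians of 49.5 and 44.6 CPM and the rod level medians of 595 and 588 CPM, and both ranges overlap. Gene by gene, 4 of 12 measured microglial markers were lower with Fstl4, and 3 of 11 rod and 4 of 5 cone markers were higher. Their part in the gene differences within the cluster was not tested, beyond the alternatives given here. Microglial RNA was present in single cells all the same: 15 of the 51 and 2 of the 8 held at least 3 microglial markers.

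Within these 59 cells 6.4% of 11195 genes were higher with Fstl4 and 5.63% were lower (717 and 630). Averages of log2 values cell by cell gave 1720 and 822, and trimmed means 551 and 920, so the balance of directions depends on the average used. The genes that differed most were named by the same rule. Crabp1, a retinoic acid binding protein, ran from 0 to 787 CPM with a median of 197 in the 51 cells with Fstl4. In the 8 cells without it was found once, at 6.29 CPM. Ldb2, a cofactor of LIM homeodomain proteins, ran from 0 to 467 CPM with a median of 171, and was found in 1 of the 8 at 7.07 CPM. Calb1, the calcium buffer calbindin, ran from 0 to 849 CPM with a median of 404 against at most 45.6 CPM in the 8. Mmp17 ran from 0 to 344 CPM with a median of 171 against at most 18.1 CPM. For these 4 genes, 42 to 44 of the 51 cells with Fstl4 were above all 8 without it, but 6 to 8 of the 51 were at 0, and the ranges overlap there. The other genes of this kind were Mmp12, Wscd1, Ano3, Nr2f2, Galnt15, Igfbp5, Prph, Kcnab1, Pcdh8, Fam163a and Lhfpl2. Mmp12 and the potassium channel subunit Kcnab1 were found in 39 and 43 of 51 cells with Fstl4 and in 0 of 8 without, a number that allows a share of up to 37.5%. With ganglion-cell-like cells that held microglial markers left out, the log2 difference of Crabp1 was 5.74 in place of 5.40 and that of Ldb2 5.12 in place of 4.73. That alternative left 36 and 6 cells, with 1201 genes higher and 557 lower.

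In the opposite direction Gal, the neuropeptide galanin, was found in 6 of 8 cells without Fstl4, up to 550 CPM with a median of 19.4. It was found in 11 of 51 cells with Fstl4, up to 17.3 CPM. Pcdh11x, a protocadherin of the X chromosome, ran from 0 to 1760 CPM with a median of 291 in the 8, and from 0 to 491 CPM with a median of 0 in the 51. Fstl1, a relative of Fstl4, was found in all 8 cells without Fstl4, from 14.7 to 309 CPM with a median of 147. In the 51 cells with Fstl4 it ran from 0 to 86.2 CPM with a median of 2.09, and the ranges overlap. The others were Tagln2, Cgnl1, Syt17, Serpinb1b, Col4a1, Vim, Hcrtr1, Nfib, Adgrg2, Shisa6, Zfp488 and Slc29a3. Among them, Cgnl1, Syt17 and Serpinb1b were each found in 4 of the 8 cells. Col4a1 and Vim, a basement membrane collagen and the filament protein vimentin, differed by -2.57 and -2.49, and by -0.45 and -0.23 with cells that held microglial markers left out. Rgs5, a pericyte gene, was found in 3 of the 8, up to 1396 CPM, and 4 of 5 measured pericyte and fibroblast markers were lower with Fstl4. These differences rest mainly on 1 cell. The summed level of 10 such markers had a median of 0 CPM in the 8 and reached 2312 CPM in that cell, which held 7 of them at 10 CPM. It also held 4 microglial markers, so it was among the cells left out in that alternative.

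**Figure D3:**
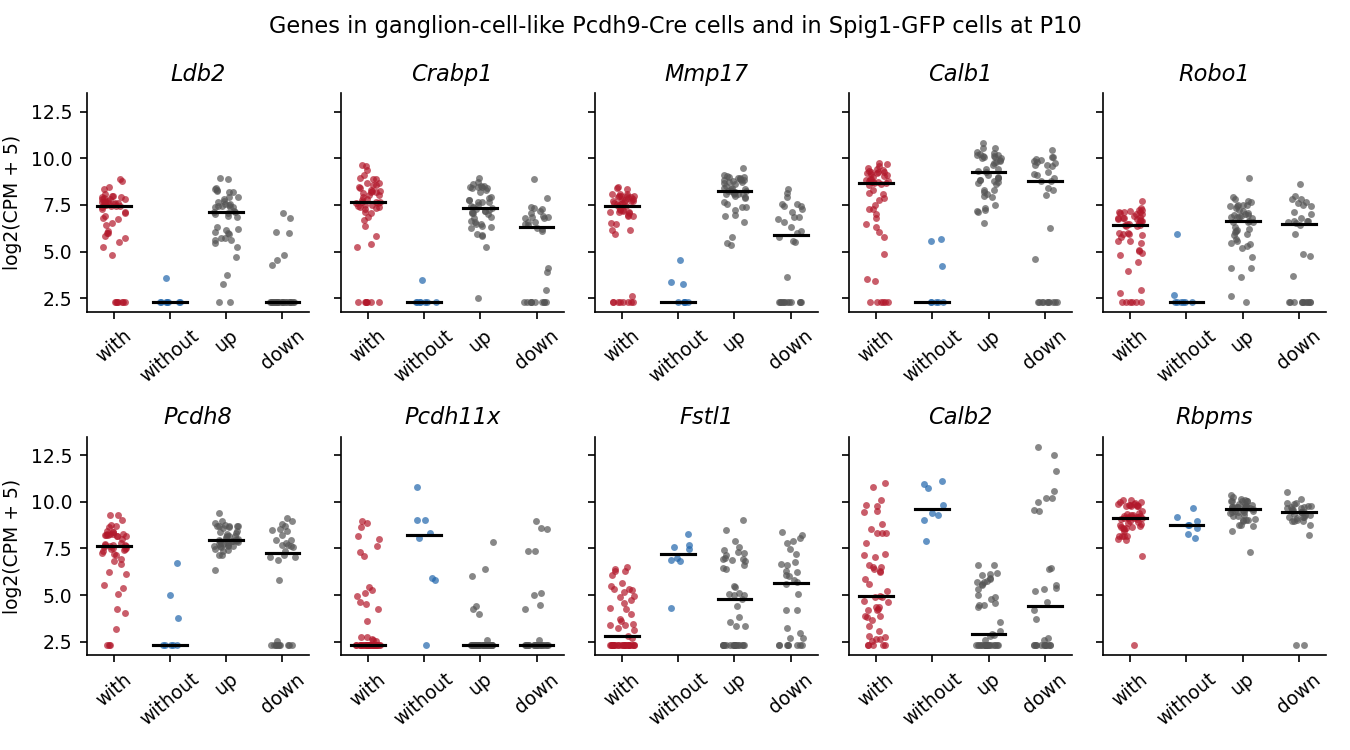
Levels of 10 genes as log2(CPM + 5) in ganglion-cell-like Pcdh9-Cre cells with Fstl4 (51, red) and without (8, blue), and in Spig1-GFP cells labelled up (45) and down (32) at P10 (grey). Each point is 1 cell and each bar is the median. Ldb2, Crabp1, Mmp17, Calb1, Robo1 and Pcdh8 have a median at or near 0 in the 8 cells without Fstl4, Pcdh11x, Fstl1 and Calb2 are higher there, and Rbpms has medians between 426 and 790 CPM in all 4 groups.

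Calb2, the calcium buffer calretinin, is on the list of ON-OFF direction-selective cell markers. It was present in all 8 ganglion-cell-like cells without Fstl4, from 238 to 2213 CPM with a median of 778. In the 51 with Fstl4 it ran from 0 to 2015 CPM with a median of 25.7. The 49 HB9-GFP ON-OFF cells had a median of 2694 CPM and the up cells one of 2.49 CPM. The summed level of 9 ON-OFF markers ran from 700 to 2792 CPM with a median of 2126 in the 8 cells. In the 51 the median was 150 CPM, but the sum ran from 3.66 to 10660 CPM, so the highest of them lay above all 8. The medians were 190 in the up cells and 6024 in the ON-OFF cells. Of the 7 of these markers measured here, 3 were lower with Fstl4 (Pcdh11x, Calb2 and Cpne4) and 1 was higher. Their median difference was -0.04, beside 0.02 over all genes. Over all 92 cells 3 of 8 measured were higher and 2 lower. Mnx1, the gene called HB9 that drives the GFP of the ON-OFF line, was at 0 in all 92 Pcdh9-Cre cells, and was found in 35 of the 49 ON-OFF cells. Cartpt was found in 2 of the 8, up to 1276 CPM, and in 35 of the 51, up to 8842 CPM. Lists for further ganglion cell types were counted at 3 or more markers of 10 CPM. That for intrinsically photosensitive cells was met in 2 of the 8 and 4 of the 51, beside 0 of 49 ON-OFF and 0 of 45 up cells. A list of other ganglion cell types was met in 4 of the 8 and 6 of the 51, beside 9 of 49 and 0 of 45. Of 3 and 5 measured markers on these lists, 2 and 3 were lower with Fstl4, and 1 and 0 higher.

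Of 7 ON direction-selective markers measured in these cells, 4 were higher with Fstl4 (Igf1, Mmp17, Ptprk and Ldb2), 1 was lower (Cntnap5a) and the other 2 were neither (Efnb2 and Sfrp1). Igf1, insulin-like growth factor 1, ran from 0 to 2361 CPM with a median of 1189 in the 51 cells with Fstl4, and from 0 to 957 CPM with a median of 247 in the 8 without. The up cells had a median of 2014 CPM and the down cells one of 1435 CPM. Over 9 such markers the summed level had a median of 1695 CPM with Fstl4 and 277 CPM without, and the up, down and ON-OFF cells had medians of 2823, 1947 and 165 CPM. All 9 markers also separated up from down cells in the Spig1-GFP comparison described below, with 6 higher in up and 3 in down. The sum therefore follows direction as well as ON type, and is not separate from the direction genes. Tbx5, a T-box transcription factor, was found in 27 of the 51, at a mean of 8.18 CPM, and in 0 of the 8.

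Other lists within the 59 cells showed part of the division, beside 6.4% of all genes higher with Fstl4 and 5.63% lower. Of 6 acetylcholine receptor subunits 3 were higher with Fstl4 and 0 lower, with Chrna3 at a median of 351 CPM against 120. Of 23 cadherins and protocadherins 7 were higher and 5 lower. Pcdh8 (medians of 194 and 0 CPM) and Cdh6 (300 and 25.8 CPM) were on the higher side, and Pcdh11x and Pcdh19 (means of 30.0 and 147 CPM) on the lower. Among 42 measured genes for neural transcription factors, 3 had higher and 14 had lower levels, the latter led by the Iroquois genes Irx3 (4.05 and 38 CPM) and Irx5 (5.89 and 43 CPM). Among 34 measured genes for axon guidance, the numbers were 3 and 7. Robo1 had medians of 81 and 0 CPM, and the semaphorin Sema6d medians of 1.46 and 67.8 CPM. Of the synaptic vesicle genes 1 of 20 was higher, and of the sodium channel genes 0 of 8 differed. The early stress genes gave 0 higher and 1 lower of 7, and the complement list 0 and 1 of 6, against 10 of 10 and 13 of 15 lower over all 92 cells.

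To place the cells between the 2 ON types, genes that separate cells labelled up from those labelled down were taken from the Spig1-GFP line. That line shares no cell with the Pcdh9-Cre cells. Its up cells were sorted by GFP, however, and Spig1 is Fstl4. The lists therefore hold genes that go with or against Fstl4 in that line, also with Fstl4 itself left out. All cells of 1 direction at 1 age formed a pool, and limma compared up with down over 6 ages with age as a block. Of 11370 genes tested, 112 were higher in up (0.985%) and 79 in down (0.695%) at a Benjamini-Hochberg adjusted p under 0.05. Genes with a difference of at least 1 formed an up list of 55 genes (56, 0.493%, before Fstl4 was left out) and a down list of 54 (0.475%). Ptprk, a receptor phosphatase, led the up list at a log2 difference of 3.85 ± 0.23 (SE, limma adjusted p = 2.0e-06). Fibcd1, a chitin-binding membrane protein, led the down list at -5.33 ± 0.21 (limma adjusted p = 5.7e-08). Ages are the replicates here, since no animals are named, so the p-values rest on variation from age to age, in which technical variation may have a share.

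In the ganglion-cell-like cells the up list followed Fstl4. Of its 52 measured genes 26 were higher with Fstl4 and 0 were lower, with a median difference of 1.10 against 0.02 over all genes. Over all 92 cells 35 of 51 were higher and 0 lower. Ptprk was found in 42 of the 51 cells with Fstl4 and 1 of the 8 without, at means of 89.1 and 5.70 CPM, beside 117 and 3.56 CPM in up and down cells. Ldb2 averaged 152 and 0.88 CPM, beside 151 and 12.9 CPM. Not every leading up gene divided in this way: Sorcs2, a sortilin-family receptor, averaged 71.4 and 35.6 CPM, Cpne5 41 and 28.5 CPM, and Pmfbp1 15 and 14.6 CPM.

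The down list differed less evenly. Of its 48 genes measured in these cells, 3 were higher with Fstl4 and 19 were lower, with a median of -0.70. Its strongest gene, Fibcd1, was nearly missing on both sides, at means of 3.38 CPM with Fstl4 and 1.90 CPM without, beside 1.83 CPM in up cells and 163 CPM in down cells. Over 10 CPM it was found in 6 of the 51 cells, 1 of the 8 and 19 of the 32 down cells. Shisa3 and Gfi1 were at 0 in all 8 cells without Fstl4 and were found in 3 of 51 each. Cntnap5a, a contactin-associated protein, averaged 16.3 CPM with Fstl4 and 47.2 CPM without, beside 102 CPM in down cells, and Ptprm 17.8 and 55.9 CPM beside 95.3 CPM. Efnb2, the guidance ligand ephrin-B2, averaged 21.6 and 18.7 CPM beside 72.6 CPM.

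Summed by cell, the up list ran from 1816 to 7065 CPM with a median of 5396 in the 51 cells with Fstl4. In the 8 without it the sum ran from 1744 to 2762 CPM with a median of 2428. The 45 up cells ran from 4618 to 8472 CPM and the 32 down cells from 222 to 4000 CPM, 2 ranges that are apart because these cells took part in choosing the list. Of the 51 cells with Fstl4, 40 were above every down cell and 34 were within the range of the up cells for both lists. Of the 8 without, 0 reached it, and all 8 lay within the up list range of the down cells. The down list sum ran from 376 to 3199 CPM with a median of 987 with Fstl4, and from 1503 to 2794 CPM with a median of 1953 without. The up cells had a median of 1092 CPM and the down cells one of 3500 CPM, so 6 of the 8 were above every up cell while all 8 were below the median of the down cells. The ON-OFF cells, which took no part in choosing the lists, had medians of 2755 CPM for the up list and 2666 CPM for the down list. Of these 49 cells 44 were above every up cell in the down list, and 4 held Fibcd1 at 10 CPM. The sums of the 8 cells without Fstl4 lay within the ranges of the ON-OFF cells for both lists. Those ranges were wide, at 1305 to 7634 CPM for the up list and 606 to 9586 CPM for the down list. The first also held all 51 cells with Fstl4, and these left the second only at its low end. Lying within these ranges therefore does not set the 8 cells apart.

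**Figure D4:**
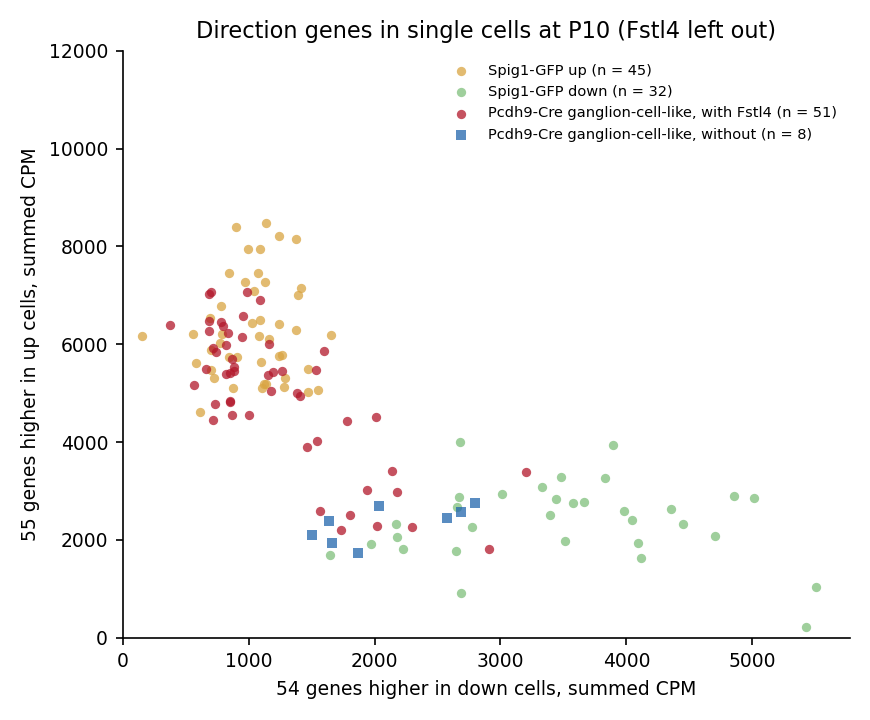
Summed CPM of 54 genes higher in down cells (horizontal) and of 55 genes higher in up cells (vertical, Fstl4 left out) in single cells at P10. Points are Spig1-GFP cells labelled up (45) and down (32) and ganglion-cell-like Pcdh9-Cre cells with Fstl4 (51) and without (8, squares). Of the 51 cells with Fstl4, 34 lie within the ranges of the up cells, and the 8 without lie at up list sums of 1744 to 2762 CPM.

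The level of Fstl4 followed the up list within the cells that held it. Among the 51 cells, log2 levels of Fstl4 and of the up list sum had a Pearson correlation of 0.76 and a Spearman correlation of 0.71, and Fstl4 against total fragments gave 0.05 and 0.06. All points come from 1 line, 1 age and 1 of the numberings, and no test is attached to them. The up list was itself chosen from cells sorted by Spig1 (Fstl4) GFP, so it is not independent of Fstl4. In the 29 cells above 300 CPM of Fstl4 the up list sum had a median of 5847 CPM and 24 cells reached the range of the up cells. In the 16 cells between 100 and 300 CPM the median was 4799 CPM and 9 reached it. In the 6 cells above 0 and up to 100 CPM the median was 2551 CPM, close to the 2428 CPM of the 8 cells at 0, and 1 reached it. Calb2 in the same 4 ranges, from the highest Fstl4 to none, had medians of 25.2, 29.2, 783 and 778 CPM. The ON-OFF marker sum had medians of 148, 160, 1427 and 2126 CPM. In each of these 3 measures the median of the 6 cells with little Fstl4 was nearer to that of the 8 with none than to those of the other 2 ranges. Calb2 is itself part of the ON-OFF marker sum, so the 3 measures are not separate.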

How the data were processed

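Single cells were profiled with Smart-seq2 (full-length polyA RNA, no molecular identifiers) on a NextSeq 500, per the labels' protocols. The tools named by the submitters' processing notes are Cufflinks 2.2.1 with Cuffnorm, HISAT2 2.1.0, R 3.5.1 and SAMtools 1.3.1, and the builds are mm10 and GRCm38.p6. The authors deposited a signal per gene and cell, a fragment count divided by a size factor. The size factor, a ratio, stands in the deposited table of cells. The authors' FPKM table served as an alternative. After multiplication by the size factor, 96.2% of values lay within 0.05 of a whole number, so whole reads were not recovered and no count model was run. Values were scaled to CPM over named genes. Of 53374 identifiers, 50599 matched GENCODE M21 with their version. No source used here says whether strand entered the counting, so overlapping genes may share fragments.

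The members, gene lists and rules were chosen with earlier results of these data known. Up and down pools (mean CPM of all cells of a direction at 1 age) were compared with limma 3.58.1 (trend, robust) on log2(mean CPM + 5), at a mean of at least 5 CPM, after checks on simulated data. Clusters used Ward linkage (scipy 1.17.1) on 10 principal components of log2(CPM + 1) for 1000 variable genes, with the number from 2 to 8 that had the highest silhouette (scikit-learn 1.9.0). Named genes are Fstl4, Rbpms, Ctss and Pcdh9, the 15 largest differences in each direction (mean of at least 5 CPM, found in at least 50% of the cells of the higher side), the 8 leading genes of the up and down lists, the first 4 of each cell type list and the 4 with the largest difference of each programme list. Genes described outside this rule, such as Itgam, Ccl4, Atf3, Cdh6, Nell1 and Rgs5, were chosen after their values were seen. Some genes that the rule names are not reported here. Antisense, pseudogene and ribosomal protein genes were counted but not described. Intervals are exact binomial (Clopper-Pearson, 95%) and, like limits from a count of 0 (3 counts), cover counting error only. Each library is 1 sorted cell; doublets were not called and all cells were kept.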

Additional observations from a re-analysis of the deposited data

Results flagged for a closer look

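In the Spig1-GFP pools labelled down, Fstl4 at P7 stood apart from the other 5 ages. It averaged 27.1 CPM there, against 2.45 to 7.56 CPM at the other ages. The pools labelled up lay between 222 and 355 CPM at all 6 ages. The gap to the next age exceeded Dixon's 95% critical value for 6 values, a level that chance passes in about 1 of 20 such groups. Fstl4 was left out of the lists built from these pools.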

How the results depend on the processing

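No paired analysis was possible by replicate number, because the numbers only number cells and the pools of cells carry none; the up and down pools were paired by age instead, as the block of the fit. The planned count models (edgeR, DESeq2) were not run, since the values are not counts. Of 184 values that answer a comparison, 157 were within the limits set for a stable value and 27 moved. Of the values for single genes and marker lists 24 moved, 12 no longer passed the test and none changed sign. For up against down (112 and 79 genes), the FPKM table gave 68 and 49, the fit with no age block 49 and 45, and no minimum level 6 and 6. Of the 16 leading up and down genes, 12 missed the threshold with no minimum level, at the same fold changes, and Ptprk, Ldb2, Fibcd1 and Cntnap5a passed. Leaving out 1 age gave 71 to 83 up genes (71 without P5) and 51 to 65 down genes (51 without P8). For the split over all cells (1059 higher, 1801 lower), a minimum of 20 CPM gave 1011 lower, and means of log2 values 5208 higher and 662 lower. Among ganglion-cell-like cells (717 and 630), a pseudocount of 1 gave 1100 higher, a minimum of 20 CPM 286 and 244, and means of log2 values 1720 higher. Leaving out cells with microglial markers, an alternative chosen after seeing the data, gave 1201 higher. Over all cells, down list genes higher with Fstl4 (2) numbered 4 with a pseudocount of 1, 9 with means of log2 values, 1 with a minimum of 20 CPM and 1 after thinning to 200000 fragments. Those lower (14) numbered 9 with a minimum of 20 CPM, 7 with means of log2 values and 8 with lists fitted without P10. Up list genes lower (0) numbered 1 with a pseudocount of 1 and 2 without cells with microglial markers. In the ganglion-cell-like cells a minimum of 20 CPM gave 1 and 10 for the down list. Up list genes higher ranged from 28 to 48 over all cells and from 23 to 37 in the cluster. The ganglion-cell-like cluster held 57 to 62 cells, 85.2% to 87.7% of them with Fstl4. Leaving out cells over 5000 CPM of rod markers, also chosen after seeing the data, moved none of these counts past 1.5 times. The cause was not tested, except that a higher minimum tests fewer genes. With 8 cells without Fstl4 in the cluster, a gene missed in all of them could still be present in up to 37.5%.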
